A study of Mus musculus with 10 samples.

Results

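The genes described here were lactoferrin (*Ltf*) and 6 further genes of epithelial antimicrobial secretion, *Pigr*, *Lypd8*, *Bpifb5*, *Lyz1*, *Lyz2* and *Defb1*, taken by gene name from the table of 29268 genes measured in the mouse uterus. They were 7 of those 29268 genes, and 6 of the 7 had enough counts to enter the test across genes, *Defb1* being the exception. The genes were chosen by their difference in transcript level between HSD17B1TG and WT in these same mice, so their fold changes are given as a description and carry no p-value. RNA of the whole uterus was sequenced from 5 HSD17B1TG and 5 WT female mice of 4 months of age on the FVB/N background, with 1 library per mouse. HSD17B1TG mice over-express the human *HSD17B1* cDNA in all tissues under the CMV-enhanced chicken beta actin promoter, in a line kept heterozygous, and WT mice carried no transgene. The level of the human transcript itself was not analysed here. HSD17B1 is the enzyme that turns estrone into the more active estradiol. HSD17B1TG females do not cycle, while WT uteri for histology were taken at random phases of the cycle and the phase of each sequenced WT mouse is not given in the sources used here, so genotype and loss of the cycle cannot be told apart. *Hoxa10* and *Hoxa11*, which mark uterine stroma, were present in every mouse at 21.7 FPKM or more and 12.3 FPKM or more. The transgenic mice are called TG1 to TG5, and the WT mice WT1 to WT5, following the order of the sample records. The labels do not say whether mice shared a litter or a preparation, so the errors below measure the spread between these samples.

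The epithelium of the uterus lines the lumen and the glands and releases proteins that limit microbes in the tract. Lactoferrin binds free iron that bacteria need, and in the mouse uterus it is a classical estrogen-induced product of epithelial cells, although neutrophils store it in their granules as well. The polymeric immunoglobulin receptor, encoded by *Pigr*, carries IgA through the epithelial cell to the lumen. LYPD8 is a glycoprotein of the Ly6/uPAR family that binds flagellated bacteria in the colon. BPIFB5 belongs to the family of the bactericidal/permeability-increasing protein, whose best known members bind bacterial lipopolysaccharide. Lysozymes cut the peptidoglycan of the bacterial wall, with *Lyz1* known from Paneth cells of the gut and *Lyz2* from macrophages and other myeloid cells. *Defb1* encodes a beta-defensin, a small cationic peptide of epithelia.

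The bases before the start sites of 4 of these genes are shown, *Ltf* and *Pigr* because their levels moved together from mouse to mouse, and *Lyz1* and *Lyz2* because of these adjacent copies 1 was called different between the genotypes and the other was not. Sequences are RefSeq promoter windows of build GRCm38.p6, written in the direction of transcription, and each holds the 250 bases before the start site. The *Ltf* stretch lies at chr9:111019042-111019291 on the plus strand and the *Pigr* stretch at chr1:130826434-130826683 on the plus strand. In these, capitals mark GGTCA, the half-site of the estrogen response element, and CACGTG, an E-box. The *Lyz1* stretch lies at chr10:117292869-117293118 and the *Lyz2* stretch at chr10:117282273-117282522, both on the minus strand. In this pair, capitals mark the bases that were not identical between the copies.
Ltf: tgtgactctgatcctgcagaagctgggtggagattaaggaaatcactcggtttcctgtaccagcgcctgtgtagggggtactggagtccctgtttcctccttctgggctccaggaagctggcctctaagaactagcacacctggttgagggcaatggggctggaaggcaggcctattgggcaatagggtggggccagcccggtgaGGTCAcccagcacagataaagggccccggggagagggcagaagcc
Pigr: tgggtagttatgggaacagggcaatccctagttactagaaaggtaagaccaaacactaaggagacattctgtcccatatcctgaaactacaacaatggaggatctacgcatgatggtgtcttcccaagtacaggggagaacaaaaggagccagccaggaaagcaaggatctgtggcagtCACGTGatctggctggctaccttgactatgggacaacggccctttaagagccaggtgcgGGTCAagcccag
Lyz1: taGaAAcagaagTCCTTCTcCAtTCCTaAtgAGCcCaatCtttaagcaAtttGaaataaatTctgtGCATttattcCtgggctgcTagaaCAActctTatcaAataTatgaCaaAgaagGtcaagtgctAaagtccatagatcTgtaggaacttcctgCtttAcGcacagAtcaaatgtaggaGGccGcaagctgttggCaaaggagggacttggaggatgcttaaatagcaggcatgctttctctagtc
Lyz2: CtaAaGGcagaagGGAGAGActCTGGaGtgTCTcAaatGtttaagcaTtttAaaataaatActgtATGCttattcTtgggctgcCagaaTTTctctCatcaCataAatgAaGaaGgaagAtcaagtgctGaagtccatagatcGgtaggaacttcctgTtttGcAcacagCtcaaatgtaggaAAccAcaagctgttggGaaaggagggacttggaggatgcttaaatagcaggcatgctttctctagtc

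Windows were found for 6 of the 7 genes, 7 windows in all since *Lypd8* had a pair of them, and each was searched on both strands from 250 bases before to 50 bases after the start. None of the 7 held the full estrogen response element, a GGTCA half-site and its inverted copy with 3 bases between them, which stood in 0.07% of all 32851 windows. With 1 mismatch allowed in 1 arm it was still in none of the 7, against 0.877% of all windows. Sequence outside these windows was not searched, so an element farther from the start would not be seen. The half-site GGTCA, whose letters are contained in the full element, occurred in 6 of the 7 windows and in 40.5% of all windows. In *Ltf* the half-site began 45 bases before the start and in *Pigr* 12 bases before it. CACGTG was found in the *Pigr* window alone of the 7, against 7.15% of all windows. The NF-kB consensus, the AP-1 element TGANTCA and the TATA box TATAAA were in none of the 7 windows and in 4.51%, 7.81% and 13.6% of all windows. The *Lyz1* and *Lyz2* stretches were identical at 200 of 252 aligned positions (79.4%).

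Of the 6 genes tested, 5 were called, against 4.24% of all 16993 tested genes, by the thresholds of the comparison between genotypes, namely an adjusted p under 0.05 in edgeR's quasi-likelihood test, a fold change over 2 and a mean over 1 FPKM in either group. *Ltf*, *Pigr* and *Lypd8* were higher in HSD17B1TG, where 2.16% of all tested genes were called higher. *Bpifb5* and *Lyz1* were lower, where 2.08% of all tested genes were called lower. FPKM, the deposited measure of fragments scaled to gene length and library depth, corrects for gene length, so levels of different genes can be set side by side on it. In each of these 5 genes the FPKM of the groups did not overlap, which held for 6.69% of tested genes, 4.04% with HSD17B1TG above and 2.65% with HSD17B1TG below. This contrast chose the genes, so nothing is read from these counts. *Lyz2* did not pass, and *Defb1* lay at or near 0 in most mice. In RNA from a whole organ, fewer cells of a type and less RNA per cell cannot be told apart.

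**Figure D1:**
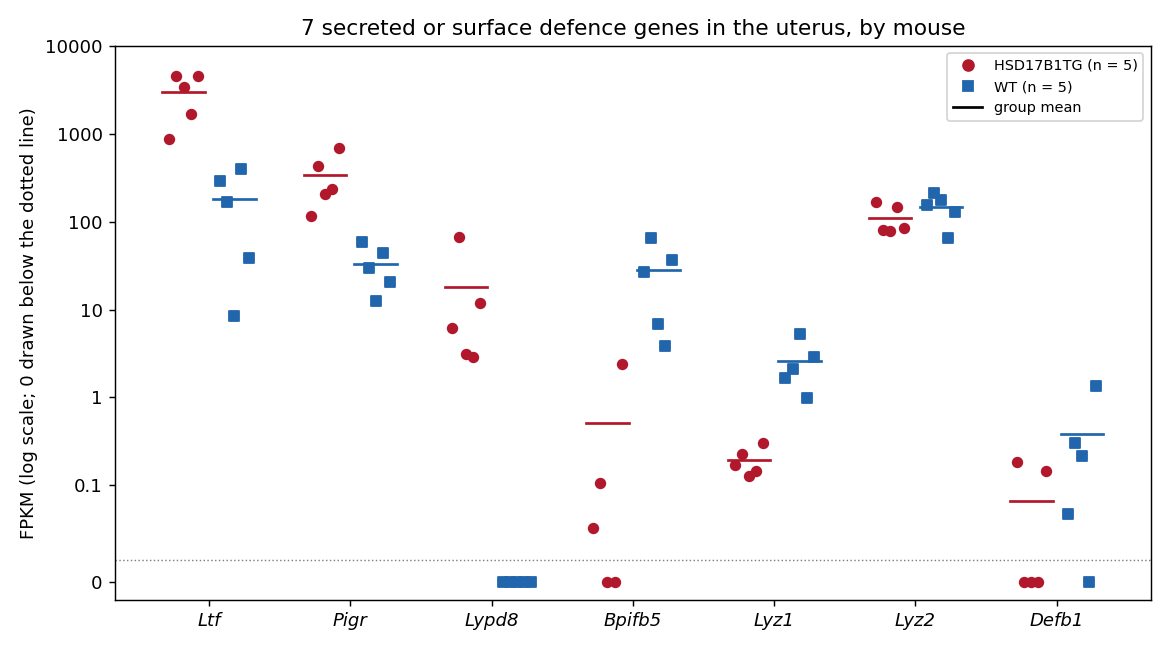
FPKM on a log scale for each of the 7 genes in each mouse, with circles for 5 HSD17B1TG mice, squares for 5 WT mice, and a line at each group mean; values of 0 are drawn below the dotted line. *Ltf*, *Pigr* and *Lypd8* of HSD17B1TG lie above every WT mouse, *Bpifb5* and *Lyz1* lie below every WT mouse, and *Lyz2* and *Defb1* overlap.

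*Ltf* (ENSMUSG00000032496, GRCm38 chr9:111019271-111042767, plus strand) was the most abundant of the 7 transcripts in HSD17B1TG. Its FPKM were 879.8, 4583, 3396, 1686 and 4541 in TG1 to TG5. In WT1 to WT5 its FPKM were 287, 167.5, 8.43, 401 and 38.4. Every HSD17B1TG mouse lay above every WT mouse, the lowest of them, TG1, at 879.8 against 401 in the highest WT mouse, WT4. The mean level was 3017 ± 1678 FPKM (SD, n = 5) in HSD17B1TG, against 180.5 ± 166 in WT. The log2 fold change was 4.07 with a standard error of 0.94. Ordered by FPKM within each mouse, *Ltf* stood between place 3 and place 32 in HSD17B1TG and between place 93 and place 5837 in WT. Alone it took 0.291 to 1.495% of all counts in HSD17B1TG mice, and 0.00317 to 0.137% in WT mice. The WT mice differed from each other by a factor of 47.6 in FPKM. On the scale of log2 CPM, the counts scaled to library depth, the SD of *Ltf* among WT mice was 2.30, larger than that of 99.2% of tested genes, and among HSD17B1TG mice it was 1.04.

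*Pigr* (ENSMUSG00000026417, chr1:130826684-130852249, plus strand), which moves IgA into secretions, followed *Ltf* at a lower level. In TG1 to TG5 it reached 118, 426, 208, 234 and 692 FPKM. In WT1 to WT5 it reached 58.5, 29.8, 12.7, 44.1 and 20.8 FPKM. The groups did not overlap, and TG1 and WT3 were the lowest mice of their groups for *Pigr*, as they were for *Ltf*. The mean was 336 ± 229 FPKM (SD, n = 5) in HSD17B1TG, against 33.2 ± 18.3 in WT, with a log2 fold change of 3.34 (SE 0.56). When single mice were left out in turn, *Pigr* lost its call without WT2 and without WT5, whereas *Ltf* kept its call only without TG1, without TG3 or without WT4. These calls are a description, since the same contrast chose the genes.

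*Lypd8* (ENSMUSG00000013643, chr11:58379043-58390728, plus strand) was counted in HSD17B1TG alone. It had 148, 1502, 76, 59 and 239 counts in TG1 to TG5 and 0 counts in each of the 5 WT mice. These counts corresponded to 6.18, 67.2, 3.15, 2.85 and 11.96 FPKM, so that TG2 lay far above the other HSD17B1TG mice. Taking 3 counts as the limit that a count of 0 allows in each WT library, the mean of HSD17B1TG was at least 155-fold higher. Leaving out TG2 lowered this bound to at least 51.1-fold higher. The limit covers counting error only. Against the same limit, the lowest mouse, TG4, was at least 24.2-fold higher. LYPD8 is known for the colon, and 9 listed genes of gut epithelium showed their highest mean for *Mmp7*, at 35.2 ± 19.3 FPKM (SD, n = 5) in HSD17B1TG, against 25.2 ± 39.1 in WT, followed by *Lgals4* at 5.90 and 5.75 FPKM. None of the 4 of these 9 genes that were tested passed in edgeR's quasi-likelihood test, and none of them had an unadjusted p under 0.05. DESeq2 called none of the 9 either.

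*Bpifb5* (ENSMUSG00000038572, chr2:154223742-154240902, plus strand) went the other way. WT1 to WT5 held 26.5, 65.3, 6.86, 3.87 and 37.0 FPKM of this BPI fold gene. TG1 to TG5 held 0.0328, 0.105, 0, 0 and 2.39 FPKM, or 1, 3, 0, 0 and 61 counts. TG5 was the only HSD17B1TG mouse above 3 counts, and the lowest WT mouse, WT4, was 1.62 times as high as TG5. The mean was 0.506 ± 1.06 FPKM (SD, n = 5) in HSD17B1TG, against 27.9 ± 25.0 in WT, with a log2 fold change of -5.82 (SE 1.37). Without TG5 the log2 fold change was -9.51, a value that rests on 4 counts in all in the other 4 HSD17B1TG mice.

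*Lyz1* (ENSMUSG00000069515, chr10:117287797-117292868, minus strand) was low in both groups and lower in HSD17B1TG. It had 4, 5, 3, 3 and 6 counts in TG1 to TG5, and 52, 51, 106, 26 and 74 counts in WT1 to WT5. The mean level was 0.195 ± 0.0722 FPKM (SD, n = 5) in HSD17B1TG, against 2.57 ± 1.62 in WT, and the log2 fold change was -3.70 (SE 0.51). WT3, the WT mouse with the least *Ltf* and *Pigr*, had the most *Lyz1*. Of the 5 genes called, *Lyz1* alone kept its call in all 10 fits that left out 1 mouse. Nothing is read from this, since the same contrast chose the genes and *Lyz1* had enough counts for the test through WT alone.

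*Lyz2* (ENSMUSG00000069516, chr10:117277331-117282321, minus strand) lies 5.48 kb from *Lyz1* and was far more abundant. TG1 to TG5 held 167, 80.3, 77.3, 147 and 84.0 FPKM, and WT1 to WT5 held 153.5, 214, 174, 65.0 and 128 FPKM. The groups overlapped, with WT4 the lowest of all 10 mice. The mean was 111 ± 42.4 FPKM (SD, n = 5) in HSD17B1TG, against 147 ± 55.7 in WT, and the log2 fold change of -0.41 (SE 0.33) did not pass the thresholds. As a share of the counts of both lysozymes, *Lyz1* made up 0.194% ± 0.112 (SD, n = 5) in HSD17B1TG, against 1.66% ± 0.776 in WT. The share repeats the difference in *Lyz1* by which the gene was chosen, so it is a description. The highest share in HSD17B1TG was 0.348% (95% Wilson interval 0.159 to 0.756) in TG5. The lowest in WT was 0.942% (0.718 to 1.24) in WT2. The longest transcripts of these genes, of 1263 and 1316 bases, were 92.0% identical, and the longest run they shared was 118 bases. None of the 1114 stretches of 150 bases in *Lyz1*, the length of 1 read, occurred in *Lyz2*. How reads that match both copies were counted is not given in the sources used here, and whether the small *Lyz1* counts hold reads of *Lyz2* was not tested.

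**Figure D2:**
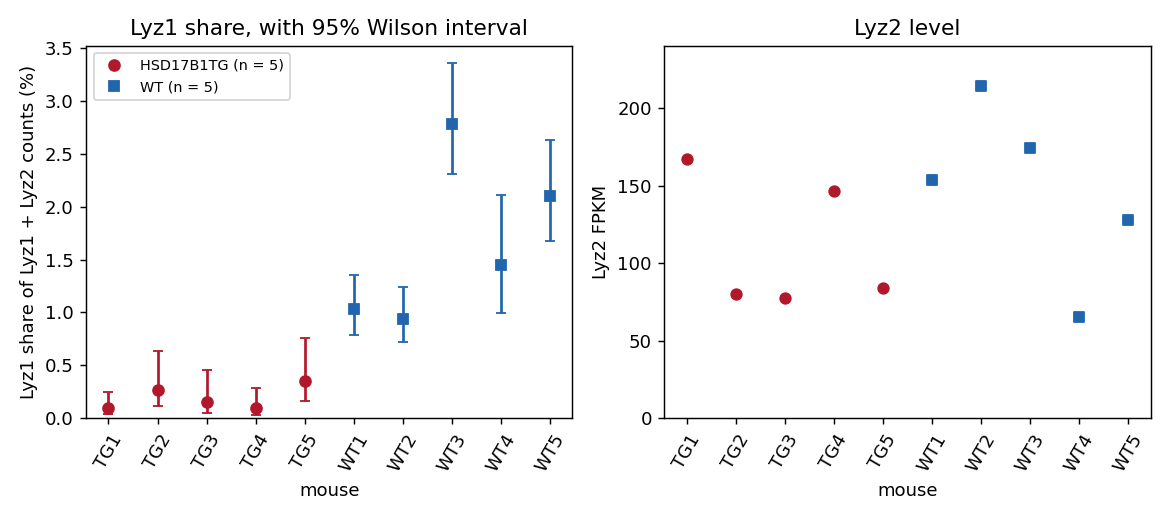
Left, *Lyz1* counts as a percentage of *Lyz1* plus *Lyz2* counts in each mouse, with 95% Wilson intervals that cover counting error only; right, *Lyz2* FPKM in each mouse. The *Lyz1* share stays at or below 0.348% in the 5 HSD17B1TG mice and at or above 0.942% in the 5 WT mice, while *Lyz2* levels overlap. *Lyz1* was chosen by its difference between the groups, which this share repeats.

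*Defb1* (ENSMUSG00000044748, chr8:21776599-21795185, plus strand) had 3, 0, 0, 0 and 2 counts in TG1 to TG5 and 1, 5, 3, 0 and 24 counts in WT1 to WT5. Only WT2 and WT5 exceeded the limit of 3 counts, and no fold change is given. A difference in this defensin was not detectable at the depth of 14817228 to 23271988 counts per mouse. None of the 7 genes overlapped another gene of the GENCODE M21 annotation, in which they have the coordinates given here.

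The level of an epithelial transcript in a whole uterus moves with the amount of epithelium, so each gene was also set against 18 epithelial markers. Their summed FPKM ranged from 915 to 4180 in HSD17B1TG and from 644 to 2027 in WT. Of the 18, *Prom1* and *Spint2* were called higher and none lower, 11.1% and 0% against 2.16% and 2.08% of all tested genes (edgeR's quasi-likelihood test, with 13 at an unadjusted p under 0.05, all higher, and 5 called higher and 0 lower by DESeq2). Without TG1 and WT4, 15 of the 18 were called higher and none lower by edgeR. The most abundant, *Krt19*, had 509 ± 212 FPKM (SD, n = 5) in HSD17B1TG, against 187 ± 170 in WT (adjusted p = 0.156, edgeR). *Krt8*, the next, had 465 ± 210 and 197 ± 128 FPKM (adjusted p = 0.146, edgeR).

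Per 100 FPKM of these markers, *Ltf* stood at 68.3 to 161 in HSD17B1TG mice and at 1.14 to 22.1 in WT mice, and the groups did not overlap. The ratio of group means for *Ltf* was 16.7 in FPKM and 8.22 per epithelial marker. *Pigr* stood at 6.79 to 16.6 in HSD17B1TG and at 1.71 to 4.49 in WT, and its ratio of means went from 10.1 to 4.13. *Bpifb5* stood at 0 to 0.0573 in HSD17B1TG and 0.191 to 6.76 in WT on that scale, and its ratio of means went from 0.0182 to 0.00412. The ratio of *Lyz1* went from 0.0759 to 0.0284, and that of *Lyz2*, which was not called, from 0.755 to 0.391. These values describe genes chosen by their difference between the groups, and the part of the amount of epithelium in that difference was not tested.

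**Figure D3:**
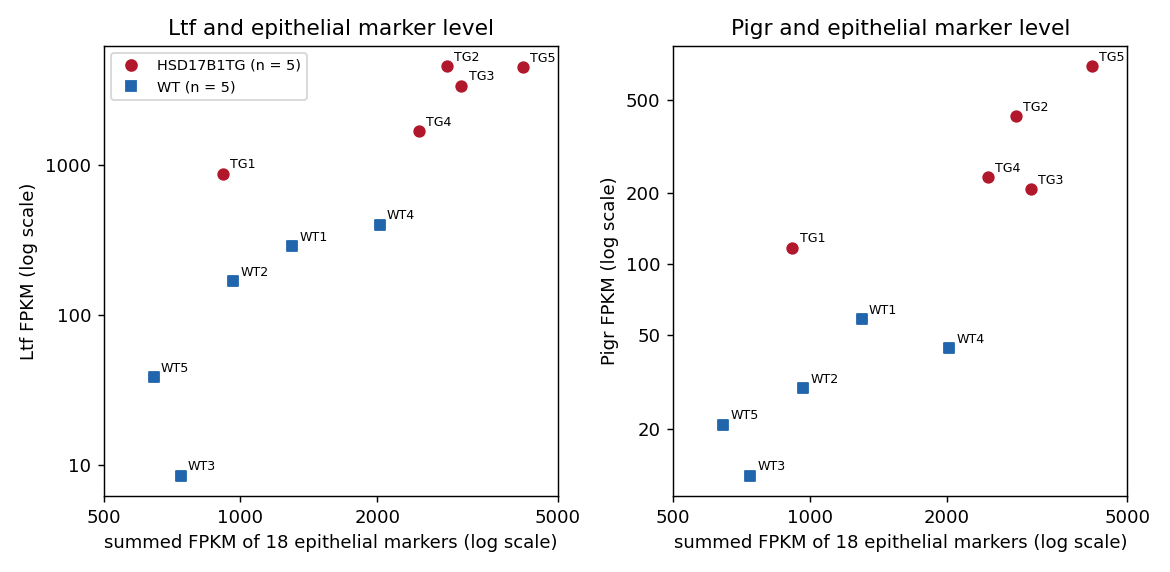
*Ltf* (left) and *Pigr* (right) FPKM of each mouse against the summed FPKM of 18 epithelial markers, all on log scales. The marker sums of the groups overlap, at 915 to 4180 in HSD17B1TG and 644 to 2027 in WT, while the *Ltf* and *Pigr* levels, by which the genes were chosen, do not.

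Lactoferrin and lysozyme are also products of white blood cells, so markers of those cells were read in the same mice. The 17 neutrophil markers listed summed to 34.7 to 79.7 FPKM in HSD17B1TG and 3.35 to 24.7 in WT. *Padi4*, which is also estrogen-induced in the uterus, gave most of the sum except in TG1, WT2 and WT3, and *Ly6g* had 5.59 ± 3.13 FPKM (SD, n = 5) in HSD17B1TG, against 1.27 ± 1.69 in WT. Without *Padi4* the sums were 12.5 to 19.98 and 3.12 to 7.07 FPKM. Of the granule genes made together with lactoferrin in neutrophils, *Camp* reached at most 0.21 FPKM and *Ngp* at most 0.176 FPKM in any mouse. *Lcn2*, a further gene of these granules that is also on the list of estrogen-induced uterine genes and was named after its values were seen, had 1648 ± 931 FPKM (SD, n = 5) in HSD17B1TG, against 258 ± 410 in WT (adjusted p = 0.21, edgeR). Of the abundant neutrophil calgranulins, *S100a8* reached at most 1.78 FPKM and *S100a9* at most 7.71 FPKM in any mouse. None of the 7 neutrophil markers tested was called (edgeR's quasi-likelihood test, 3 at an unadjusted p under 0.05), while DESeq2, run without the filter on counts, called 4 of 17 higher. The part of neutrophils in the level of *Ltf* was not tested.

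The 17 macrophage markers summed to 304 to 501.5 FPKM in HSD17B1TG and 177 to 303 in WT, with *C1qa* at 79.1 ± 24.8 and 67.9 ± 14.4 FPKM (SD, n = 5) and *Cd14* at 95.2 ± 65.8 and 37.0 ± 16.7. Of 16 tested, *Cd68* and *Itgam* were called higher and *Mertk* lower, 12.5% and 6.25% against 2.16% and 2.08% of all tested genes (edgeR's quasi-likelihood test). Their part in the levels of *Lyz2* was not tested. The 15 stromal markers summed to 758 to 2721 FPKM in HSD17B1TG and 2459 to 3435 in WT, and 7 of them were called lower, 46.7% against 2.08% of all tested genes (edgeR's quasi-likelihood test, 10 at an unadjusted p under 0.05, and 9 called lower by DESeq2), among them *Col3a1* at 188 ± 104 against 512 ± 96.1 FPKM. The 12 muscle markers ranged from 1025 to 8531 FPKM in HSD17B1TG and from 516 to 6697 in WT, with TG1 and WT4 far above the others of their groups, and *Acta2* and *Actg2* as the most abundant. The 18 oviduct markers, of which *Tppp3* and *Pax8* were the most abundant of the 16 listed, summed to 47.7 to 99.9 and 59.4 to 122 FPKM. None of the 8 tested was called (edgeR's quasi-likelihood test, 2 at an unadjusted p under 0.05, and 1 of 16 called by DESeq2). Without TG1 and WT4 the log2 fold changes were 4.83 for *Ltf*, 3.68 for *Pigr*, -5.80 for *Bpifb5*, -3.86 for *Lyz1* and -0.79 for *Lyz2*.

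How the genes varied among mice of the same genotype does not use the difference between the genotypes. For this, the group mean was taken from each mouse's log2 CPM, and the deviations were compared over all 10 mice. *Ltf* and *Pigr* deviated together (Pearson's r = 0.835, p = 0.000903; Spearman's rho = 0.794, p = 0.00229, both by exact permutation within the groups). Adjusted over the 10 pairs of *Ltf*, *Pigr*, *Bpifb5*, *Lyz1* and *Lyz2*, these permutation p-values were 0.00903 and 0.0229. Without TG1 and WT3, whose *Ltf* deviations lay farthest from the median over the 10 mice, r was 0.7, and without each single mouse it lay between 0.806 and 0.898. Only 2.3% of tested genes had a higher r to *Ltf* than *Pigr* had. The mean deviation of the epithelial markers had an r of 0.811 to *Ltf* and of 0.883 to *Pigr*, and that of 26 estrogen-induced uterine genes an r of 0.892 and 0.784. The neutrophil markers had an r of 0.738 to *Ltf* and 0.403 to *Pigr*, and the stromal markers one of -0.778 and -0.763. The share of any of these in the joint movement of *Ltf* and *Pigr* was not tested.

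The other 9 pairs did not pass, with adjusted p between 0.326 and 0.692 for r (exact permutation). Of these, 7 involve *Bpifb5* or *Lyz1*, which had enough counts for the test through WT alone, so their deviations among HSD17B1TG mice rest on 6 or fewer counts per mouse, apart from *Bpifb5* in TG5, and nothing is read from these pairs. Over all 10 mice the r to *Ltf* was -0.728 for *Lyz1* and -0.542 for *Lyz2*. The sign of the first differed between the groups, negative among WT mice and positive among HSD17B1TG mice, where *Lyz1* rests on 3 to 6 counts per mouse, and without WT3 it was -0.401. *Lyz1* and *Lyz2*, neighbours on the chromosome, had an r of 0.397, which turned to -0.14 without WT4. *Lypd8*, at 0 in every WT mouse, was left out of these pairs.

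**Figure D4:**
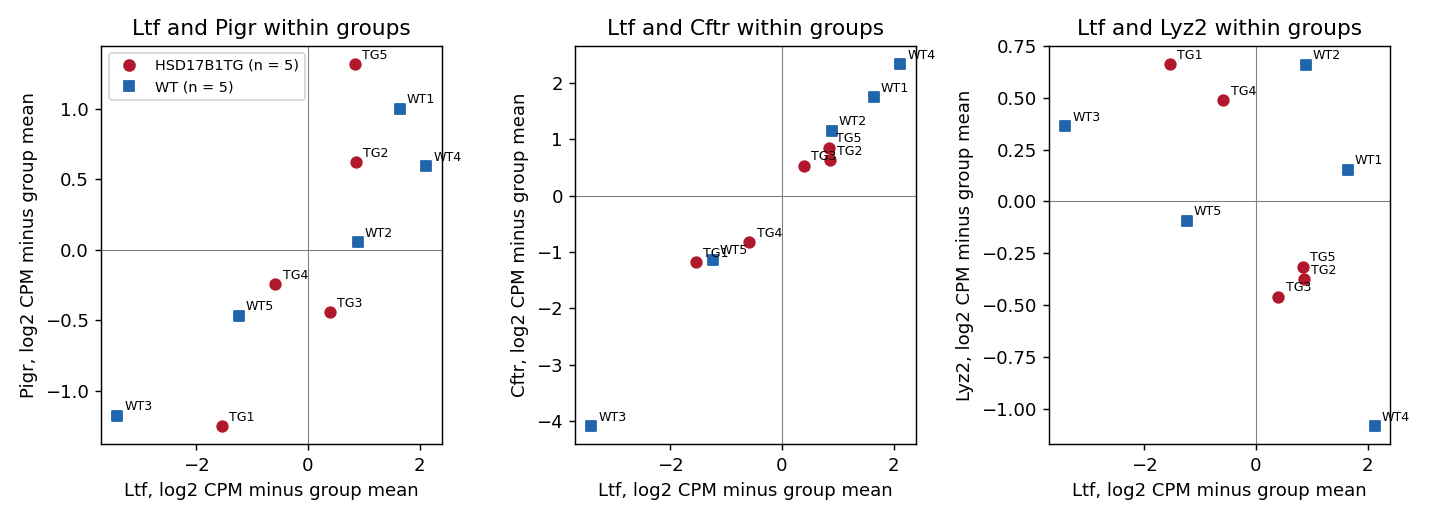
Deviation of log2 CPM from the group mean in each of 10 mice, for *Ltf* on the horizontal axis and *Pigr*, *Cftr* and *Lyz2* on the vertical axes. *Pigr* (r = 0.835) and *Cftr* (r = 0.99) rise with *Ltf*, with TG1 and WT3 at the lower left, whereas *Lyz2* has an r of -0.542.

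Among protein-coding genes, those whose deviations over the 10 mice were most like those of *Ltf* were *Cftr* (r = 0.99), *Tgm5* (r = 0.988) and *Gjb2* (r = 0.978). *Cftr*, the chloride channel of secretory epithelia, did not pass the test between the genotypes, at 8.79 ± 4.68 FPKM (SD, n = 5) in HSD17B1TG, against 4.82 ± 4.50 in WT (log2 fold change 0.87, SE 0.85, adjusted p = 0.558, edgeR). *Gjb2*, which encodes a gap junction protein, had 153 ± 81.0 and 32.9 ± 33.4 FPKM (adjusted p = 0.161, edgeR). For *Pigr* the most similar were *Galc* (r = 0.972), *Trak1* (r = 0.97) and *Ptpru* (r = 0.955). *Ptpru*, a receptor tyrosine phosphatase, was itself called higher in HSD17B1TG, at 32.8 ± 12.6 against 6.38 ± 3.29 FPKM (adjusted p = 0.0177, edgeR).

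For *Lyz1* the most similar were *1110012L19Rik* (r = 0.965), *Maob* (r = 0.964) and *Angptl7* (r = 0.962). *Maob*, which encodes a monoamine oxidase, was called lower at 1.41 ± 0.706 against 53.6 ± 69.5 FPKM (SD, n = 5; adjusted p = 0.0234, edgeR), and the secreted factor *Angptl7* at 2.65 ± 1.27 against 156 ± 192 FPKM (adjusted p = 0.0177, edgeR). For *Lyz2* they were *Thy1* (r = 0.968), *Selenon* (r = 0.966) and *Zfp85* (r = 0.964). *Thy1*, a surface protein of stromal cells and T cells, fell to 9.67 ± 4.48 from 40.6 ± 25.6 FPKM (adjusted p = 0.0415, edgeR). The r values of *Lyz1* rest mainly on the WT mice, given its 3 to 6 counts per HSD17B1TG mouse. As for the pairs with *Lyz1*, nothing is read from these values or from the calls of *Maob* and *Angptl7* beside them. These genes were picked as the highest of all tested genes, of which 0.742% had an r over 0.9 to *Ltf*, so their r values are a description.

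Other secreted defence proteins were read from a list of 96 antimicrobial genes that left out the 7 above. The list was chosen with earlier results of these data known, so its counts are a description. Of these, 58 were listed in the table and 24 tested. In HSD17B1TG 6 of the 24 were called higher, 25.0% against 2.16% of all tested genes, and none lower (edgeR's quasi-likelihood test, 12 higher and 4 lower at an unadjusted p under 0.05). DESeq2, run without the filter on counts, called 12 of all 58 higher and 2 lower. The median log2 fold change of the 24 was 2.06, with 16 higher and 8 lower, where that of all tested genes was 0.00. That of the 18 epithelial markers was 1.24. The list was not scaled to these markers, and the part of the amount of epithelium in its calls was not tested.

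The 6 were of several kinds. *Dmbt1*, a scavenger glycoprotein that binds bacteria, had 21.2 ± 15.2 FPKM (SD, n = 5) in HSD17B1TG, against 0.412 ± 0.639 in WT (log2 fold change 5.66, SE 1.18, adjusted p = 0.029, edgeR). *Pglyrp1*, which recognises bacterial peptidoglycan, had 302 ± 177 and 28.6 ± 38.7 FPKM (log2 fold change 3.40, SE 0.80, adjusted p = 0.0385, edgeR). Of the mucosal chemokines, *Cxcl17* had 440 ± 282 and 45.5 ± 38.1 FPKM (adjusted p = 0.0317, edgeR). *Ccl28*, which attracts plasma cells that make IgA, had 51.7 ± 33.9 and 8.46 ± 5.98 FPKM (adjusted p = 0.0414, edgeR). The secreted phospholipase *Pla2g2d* had 3.21 ± 1.30 and 0.648 ± 0.489 FPKM (adjusted p = 0.0427, edgeR), and the chitinase-like *Chil1* 17.99 ± 20.8 and 0.427 ± 0.805 FPKM (adjusted p = 0.0437, edgeR). Among these 6, picked as called higher, every HSD17B1TG mouse lay above every WT mouse in 5, against 4.04% of all tested genes, from which nothing is read since the calls rest on the same contrast. In *Chil1* the groups overlapped, since TG1 at 1.84 FPKM lay just under WT4 at 1.86. With single mice left out in turn, each of these calls was kept in 2 to 4 of 10 fits. No gene of the list was called without TG2, TG4, TG5, WT2, WT3 or WT5, and 11 were called higher without WT4.

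**Figure D5:**
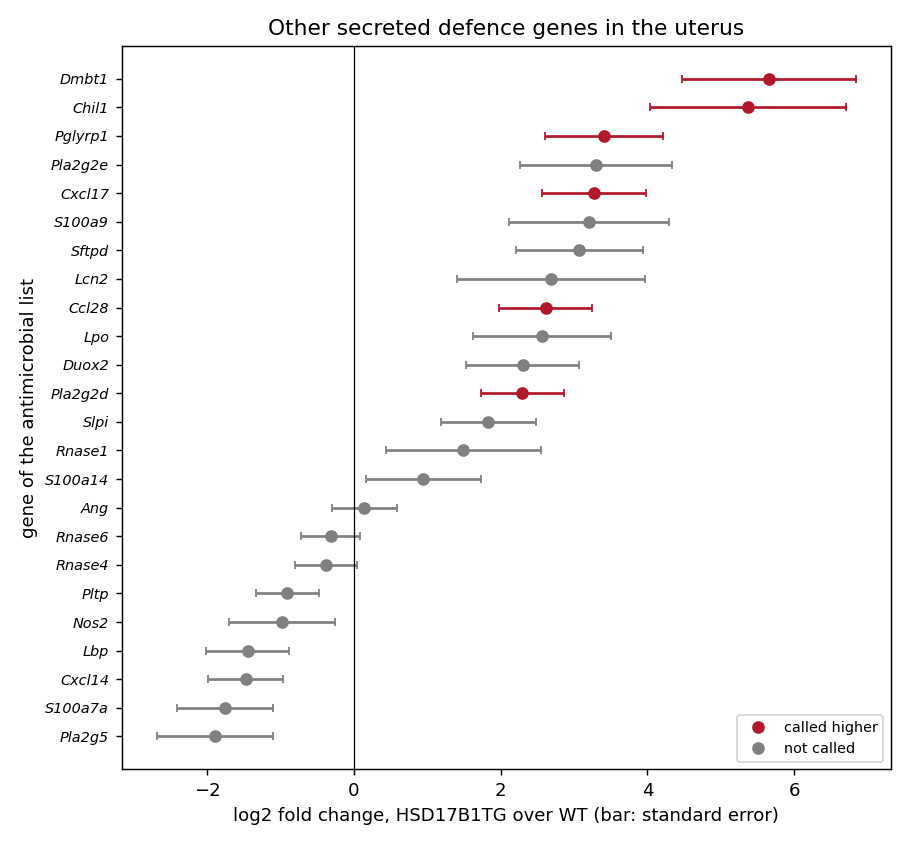
Log2 fold change (HSD17B1TG over WT) with its standard error for the 24 antimicrobial genes tested besides the 7, with the 6 called higher in red. The calls lie between 2.29 for *Pla2g2d* and 5.66 for *Dmbt1*, and none of the 8 genes to the left of 0 was called.

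Few close relatives of the 7 genes had enough counts to be tested. Of the BPI fold genes on the list, *Lbp* and *Pltp* were tested, with log2 fold changes of -1.45 (SE 0.57) and -0.90 (SE 0.43) that did not pass (adjusted p = 0.137 and 0.213, edgeR). The other 6 listed stayed under 1 FPKM in every mouse, as did all 3 listed genes of the lysozyme kind. Of those 6, *Bpifb1*, named after its values were seen, was at 0 in each HSD17B1TG mouse and at 0.0402 to 0.72 FPKM in WT mice. *Bpifb4* went the other way, with means of 0.0406 FPKM in HSD17B1TG and 0.0262 in WT. Of the 9 listed beta-defensins none had enough counts to be tested. *Defb14*, named after its values were seen, had 3.42, 4.23, 0.782, 8.51 and 14.8 FPKM in TG1 to TG5 and was listed at 0 in each WT mouse, and DESeq2, run without the filter on counts, called it higher.

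Of 42 Ly6/uPAR genes, the family of *Lypd8*, 20 were tested and none passed (edgeR's quasi-likelihood test, 6 at an unadjusted p under 0.05, all higher), whereas DESeq2 called 7 of 30 higher and 1 lower. Those with the smallest p were *Ly6e* at 256 ± 120 against 112 ± 14.6 FPKM (SD, n = 5; adjusted p = 0.0514, edgeR), *Ly6a* at 394 ± 292 against 115 ± 48.9 (adjusted p = 0.0586) and *Spaca4* at 4.95 ± 3.98 against 0.371 ± 0.514 (adjusted p = 0.0624). Their median log2 fold change was 0.77.

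Secretory IgA needs the receptor, the immunoglobulin and the cells that make it. Of 20 tested genes of the IgA pathway, *Ccl28* and *Irf4* were called higher and *Prdm1* lower, 10% and 5% against 2.16% and 2.08% of all tested genes (edgeR's quasi-likelihood test, 3 higher and 1 lower at an unadjusted p under 0.05). DESeq2 called 3 of 28 higher and 1 lower. The median log2 fold change was -0.31. *Irf4*, a transcription factor of plasma cells and other white blood cells, had 3.93 ± 1.59 FPKM (SD, n = 5) in HSD17B1TG, against 0.685 ± 0.664 in WT (adjusted p = 0.0379, edgeR). *Prdm1*, a factor of plasma cells that other cells express too, had 2.08 ± 0.947 and 9.70 ± 3.63 FPKM (adjusted p = 0.0211, edgeR). The immunoglobulin genes themselves did not pass the test. *Igha* had 19.7 ± 16.8 and 28.1 ± 17.3 FPKM (adjusted p = 0.698, edgeR) and *Igkc* 93.6 ± 55.8 and 126 ± 79.8 (adjusted p = 0.692). Of the 12 listed markers of B and plasma cells, with sums of 56.6 to 227.5 FPKM in HSD17B1TG and 30.1 to 318 in WT, 7 were tested and none was called (edgeR's quasi-likelihood test, 1 at an unadjusted p under 0.05, and 1 of 12 called by DESeq2).

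Of 29 tested genes that carry or store iron, the metal that lactoferrin withholds, 1 was called higher and 1 lower, 3.45% each way against 2.16% and 2.08% of all tested genes (edgeR's quasi-likelihood test, 8 higher and 5 lower at an unadjusted p under 0.05). DESeq2 called 3 of 31 higher and 4 lower. *Cp*, which encodes the ferroxidase ceruloplasmin, had 43.2 ± 27.4 FPKM (SD, n = 5) in HSD17B1TG, against 8.05 ± 3.97 in WT (log2 fold change 2.42, SE 0.51, adjusted p = 0.0292, edgeR). *Steap4*, a metalloreductase, had 5.35 ± 2.19 and 32.3 ± 33.95 FPKM (log2 fold change -2.60, SE 0.66, adjusted p = 0.0461, edgeR). *Slc39a14*, a metal importer, had the smallest p of the list (log2 fold change -0.83, SE 0.16, adjusted p = 0.0236, edgeR) but stayed under the fold change threshold. The median over the list was -0.06.

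Of 40 tested genes that sense microbes or carry the signals known to induce such secretions, 3 were called higher and 1 lower, 7.5% and 2.5% against 2.16% and 2.08% of all tested genes, with a median log2 fold change of 0.24. At an unadjusted p under 0.05, 17 were higher and 2 lower (edgeR). DESeq2 called 6 of 45 higher and 1 lower, and without TG1 and WT4 edgeR called 13 higher and 2 lower. *Tlr2*, a receptor of bacterial lipoproteins, had 15.1 ± 4.84 FPKM (SD, n = 5) in HSD17B1TG, against 4.93 ± 2.39 in WT (adjusted p = 0.0306, edgeR). *Nfkbiz*, a cofactor of NF-kB, had 19.0 ± 9.04 and 7.29 ± 1.86 FPKM (adjusted p = 0.0348, edgeR), and the kinase *Irak2* 14.7 ± 2.76 and 6.18 ± 2.68 (adjusted p = 0.0393). *Il17rb*, a receptor of the IL-17 family, had 1.58 ± 1.22 and 31.6 ± 40.6 FPKM (adjusted p = 0.034, edgeR). Of 26 tested genes known to be induced by estrogen in the uterus, *Wfdc18*, *Sprr2d*, *Sprr2b* and *Clca1* were called higher and none lower, 15.4% and 0% against 2.16% and 2.08% of all tested genes (edgeR's quasi-likelihood test, 12 higher and 2 lower at an unadjusted p under 0.05), with a median log2 fold change of 2.01. DESeq2 called 11 of 30 higher and 1 lower. *Wfdc18*, of the whey acidic protein family, had 41.4 ± 38.8 and 1.07 ± 0.733 FPKM (adjusted p = 0.0149, edgeR). The most abundant of the 4, *Clca1*, a secreted regulator of chloride channels, had 2104 ± 1471 and 82.7 ± 123 FPKM (adjusted p = 0.0424, edgeR). The small proline-rich proteins *Sprr2d* and *Sprr2b* had 24.9 ± 25.6 and 22.9 ± 20.4 FPKM in HSD17B1TG and 0.436 ± 0.716 and 0.592 ± 0.994 in WT. With single mice removed in turn, *Wfdc18* kept its call in 10 of 10 fits, *Prdm1* in 6, *Cp* in 5 and *Sprr2d* in 4. *Tlr2*, *Il17rb*, *Nfkbiz*, *Irak2*, *Irf4*, *Clca1* and *Sprr2b* kept theirs in 3 fits each and *Steap4* in 1.

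Position on the chromosome was not used to pick the genes. The nearest tested protein-coding gene on each side of each of the 7 gave 12 neighbours, and none was called (edgeR's quasi-likelihood test, 4 at an unadjusted p under 0.05). Their log2 fold changes ran from -1.73 to 3.14. *Als2cl* and *Ccrl2* flank *Ltf*, with log2 fold changes of 1.20 (SE 0.39) and -0.91 (SE 0.45), and DESeq2 gave *Als2cl* an adjusted p of 0.0317. *Fcamr*, an Fc receptor gene 11.9 kb from *Pigr*, stood at 1.01 (SE 0.49), and *Mapkapk2* on the other side at 0.10 (SE 0.14). *Mapre1* and *Cdk5rap1*, 450 and 94.5 kb from *Bpifb5*, stood at 0.09 (SE 0.13) and -0.16 (SE 0.19). *Cpsf6* and *Yeats4* around the lysozyme pair stood at -0.22 (SE 0.12) and 0.07 (SE 0.15). Genes with too few counts for the test were passed over, so a neighbour need not be the adjoining gene.

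The neighbour that moved most was *2210407C18Rik*, 217.5 kb from *Lypd8*, at 20.3 ± 11.8 FPKM (SD, n = 5) in HSD17B1TG, against 2.30 ± 2.95 in WT. Every HSD17B1TG mouse lay above every WT mouse, but the gene did not pass (log2 fold change 3.14, SE 0.85, adjusted p = 0.0525, edgeR), while DESeq2 gave an adjusted p of 0.00113. It also passed an adjusted p of 0.05 with voom (0.0333), on log2(FPKM + 1) and log2(FPKM + 0.1) (0.0196 and 0.0247), and by edgeR without TG1 (0.042), without WT4 (0.00897) and without both (0.00699). Without both TG1 and WT4, *Als2cl*, *Ccrl2* and *Fcamr* passed as well (adjusted p = 0.0149, 0.0458 and 0.0384, edgeR), and *Als2cl* also without TG1 alone (0.0273). *Sh3bp5l*, on the other side and 31.3 kb away, had a log2 fold change of 0.32 (SE 0.14). On the right of *Defb1*, *Atp7b* had an adjusted p of 0.0338 (edgeR, log2 fold change -1.73) at 0.0656 ± 0.0120 and 0.218 ± 0.0946 FPKM, under the level threshold. This p was 0.0624 with voom, 0.0556 by edgeR without the count filter, and 0.105 and 0.0582 on log2(FPKM + 1) and log2(FPKM + 0.1). By edgeR without TG2, TG4, TG5, WT1, WT2, WT3 or WT5 it lay between 0.0593 and 0.0855. In the remaining fits it stayed under 0.05. *Agpat5*, 2885 kb from *Defb1*, had a log2 fold change of -0.18 (SE 0.13).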

How the data were processed

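Uterine RNA of 5 HSD17B1TG and 5 WT mice was sequenced. The authors mapped paired-end reads of 150 bases with HISAT2 2.0.5 to the mouse genome (GRCm38, Ensembl 94 annotation). The authors deposited raw counts per gene and FPKM, the latter scaled by the DESeq2 size factor of each mouse. Which program counted the reads, and with which strand setting, is not given in the sources used here. The 10 deposited per-mouse columns of counts divided by size factors were not used, nor were the authors' columns of fold changes and p-values from their DESeq2 comparison, nor their tables of enriched GO terms and KEGG pathways.

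Total counts were 14817228 to 23271988 per mouse, and 3 counts correspond to 0.129 to 0.203 CPM. The genotype label set the group of each sample. The deposited raw counts went into edgeR 4.0.16 under R 4.3.3 (filterByExpr, TMM, quasi-likelihood test, Benjamini-Hochberg adjustment over 16993 genes, fit to all 10 mice). A gene was called when its adjusted p was under 0.05, its fold change over 2 and its mean FPKM over 1 in either group. Deviations within groups used log2 CPM with a prior count of 2. Alternatives were DESeq2 1.42.0, limma 3.58.1 (voom, and log2 of FPKM plus 1 or 0.1), other normalizations, no count filter, each mouse left out, and, added after seeing the data, TG1 and WT4 left out together and scaling to epithelial markers. The permutation p-values of the pairs were added after seeing the data too. Promoters came from RefSeq (GRCm38.p6) and transcripts from GENCODE M21. Protein features were not analysed here.

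The 7 genes and all lists were chosen with earlier results of these data known. Named were these 7, of each list the called genes (at most 6, or the 3 with the smallest p where fewer than 3 were called), the 3 most similar genes of each tested gene, the nearest neighbours, and the 2 most abundant markers of each cell type together with those a result turned on. The similar genes of *Lypd8* and *Bpifb5* are not given, since WT mice had no counts of the first and most HSD17B1TG mice 3 or fewer of the second.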

Additional observations from a re-analysis of the deposited data

Results flagged for a closer look

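For the FPKM of the 7 genes and of the 6 called antimicrobial genes, 25 groups of 5 mice were searched for a highest or lowest mouse far from the rest. About 1 in 20 such groups stands out by chance where values are normally distributed. FPKM of low genes are often skewed to high values, so that rate may be too low here. Each mouse flagged was the highest of its group, and nothing is read from the number flagged. *Lypd8* in TG2 (67.2 FPKM) lay far from the nearest HSD17B1TG mouse, at 11.96. *Bpifb5* in TG5 (2.39 FPKM) lay far from the nearest, at 0.105. *Defb1* in WT5 (1.34 FPKM) lay far from the nearest WT mouse, at 0.302. Among the other antimicrobial genes, *Pglyrp1* stood apart in WT4 (97.4 FPKM, the nearest at 15.5), *Dmbt1* in WT1 (1.54 FPKM, the nearest at 0.309) and *Chil1* in WT4 (1.86 FPKM, the nearest at 0.145).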

How the results depend on the processing

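No paired analysis was possible because the number that ends each label is shared by too few mice of the groups and the labels do not say what it marks. Between the groups this number was shared by TG1 and WT4 alone, the mice that were also left out together. Whether these mice had a preparation in common is not given, and the part of any such link was not tested. The directions of *Ltf*, *Pigr*, *Lypd8*, *Bpifb5*, *Lyz1* and *Lyz2* were the same in all 18 other fits. The 8 fits with another tool, normalization or filter, or without both TG1 and WT4, all called *Ltf*, *Pigr*, *Lypd8* and *Lyz1*, and 7 called *Bpifb5*, the exception being voom. With 1 mouse left out, *Ltf* was called in 3 of 10 fits (log2 fold change 3.73 to 4.59), *Lypd8* in 4, *Pigr* in 8 (2.90 to 3.62), *Bpifb5* in 4 (-9.51 to -5.25), *Lyz1* in 10 (-3.90 to -3.30) and *Lyz2* in none. All these fits use the contrast that chose the genes, so the calls kept are a description. The other 8 fits gave log2 fold changes of -7.73 to -3.88 for *Bpifb5* and -3.86 to -1.47 for *Lyz1*, the latter being -1.47 on log2(FPKM + 1) and -3.01 on log2(FPKM + 0.1), a scale that understates changes of low genes. Genes called higher and lower over the whole table went from 38 to 888 and from 27 to 666 with 1 mouse left out, against 367 and 354 with all mice, being most numerous without WT4 (888 and 666) and without TG1 (763 and 575). In the antimicrobial list these counts went from 0 to 11 and from 0 to 2, and in the 5 related lists together (Ly6/uPAR, IgA, iron, microbial sensing, estrogen), where 10 were called higher and 3 lower, from 1 to 28 and from 0 to 6. The cause was not tested. Without both TG1 and WT4, 1141 genes were called higher and 879 lower, 11 and 3 of them antimicrobial and 36 and 9 in the related lists. DESeq2 called 906 and 666 genes, 12 and 2 of them antimicrobial and 30 and 8 in the related lists. Voom called 189 genes lower, 1 of them in the related lists. On log2(FPKM + 1), 228 genes were called lower and 17 of the related lists higher, and on log2(FPKM + 0.1) 16 of the related lists were called higher. The limit that 0 counts allow, 3 counts, sets what could be measured for *Defb1*, for *Lypd8* in WT and for *Bpifb5* in HSD17B1TG.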
